A study of Mus musculus with 10 samples.

Results

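The genes described here are the chemokine ligands of the Ccl and Cxcl families and Cx3cl1, together with the cytokines Il1a, Il1b, Il33, Csf1, Csf2 and Csf3 and the secreted protein Lcn2. They were chosen by name. Every non-control probe was taken whose gene symbol starts with Ccl or Cxcl and a digit or is one of the other 8 symbols. The rule reads names only, but it was chosen with earlier results of these data known. The shares over all genes given beside the counts below are therefore no independent test. The rule found 41 genes among the 34607 names on the array, 20 Ccl genes, 13 Cxcl genes and the 8 others, measured by 55 probes of 60 bases.

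Gene expression was measured on 10 single-colour arrays, with 2 arrays for each of 5 groups. All cells came from mice carrying a Six2-GFP transgene on a C57BL6J/ICR background, in which green fluorescent protein marks the Six2-expressing nephron progenitors, the cells that form the nephrons of the developing kidney. The E11.5 progenitors are GFP-positive cells sorted at the embryonic stage E11.5, and the 8-day and 19-day cultures were grown from such cells in conditioned media for that many days. The P0 progenitors are GFP-positive cells sorted at birth (P0), and the P0 non-progenitors are the GFP-negative cells of that stage, a mixture whose makeup the labels do not give. RNA was amplified to cDNA before labelling in every group. The labels do not say which cells conditioned the media, whether cultured cells were sorted again before lysis, or whether arrays of a group came from separate litters or cultures. The p-values below therefore measure only the spread between these arrays, which may be technical, and the number of arrays limits their precision.

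Chemokines are small secreted proteins that steer migrating cells through G protein-coupled receptors. Some are induced by inflammatory signals through NF-kB or by interferons and draw in leukocytes, and others, such as Cxcl12, are made constantly and position cells in developing tissue. In injured kidneys, tubule and stromal cells are known sources of Cxcl1, Ccl2, Csf1 and Lcn2.

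Levels are log2 probe intensities minus the array's 75th percentile, so a level of 0 is that percentile and a difference of 1 is a 2-fold change. Between 60.4% and 69.8% of the spots on an array were well above background. A gene was tested where, in at least 1 group, both arrays showed a probe of it well above background, which held for 31 of the 41 genes. Some genes met this only in the group where they were high and entered the test through it. Among those that passed, this was so for Ccl7, Mmp3 and Ifit1 (19-day culture), Il18 (E11.5 progenitors) and Ccr2 (P0 non-progenitors). The 10 genes not tested were Ccl1, Ccl4, Ccl20, Ccl22, Ccl26, Ccl28, Cxcl3, Cxcl15, Cxcl17 and Il1a. Of these, Ccl1 and Cxcl3 were above background on 1 array of the 19-day culture and Ccl4 and Ccl28 on 1 array of the P0 non-progenitors, and the other 6 were above background on no array. Tests are limma's moderated test across 26252 genes with Benjamini-Hochberg adjustment at 0.05, and each change is given with its standard error (SE). A fold written "at least" is a lower bound, used where a group was not well above background on either array.

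The labelled cell identity was checked against 12 nephron progenitor markers, whose mean level was 3.42 to 3.78 in E11.5 progenitors and 3.78 to 3.81 in P0 progenitors. It was 0.88 to 1.06 in P0 non-progenitors. In culture it was 1.79 to 2.04 at 8 days and -0.96 to 0.27 at 19 days, where 10 of the 12 markers had fallen against E11.5 progenitors, while 11 of 14 stromal markers had risen and 1, the renal stromal factor Foxd1, had fallen (-6.95, adjusted p = 0.00986). Over all tested genes, 7.23% rose and 9.59% fell in that comparison. Eya1, among the 12 progenitor markers, was at 9.24 to 9.74 on all 10 arrays, and whether its probe reports the gene was not tested. In such bulk samples, fewer cells of a type and less RNA per cell cannot be told apart.

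The promoters of Csf1, which rose in culture, and of Cxcl1, Cxcl2 and Cxcl3, neighbours of Cxcl5, are printed as examples that hold the NF-kB consensus. NF-kB is a known regulator of these genes. Cxcl1 and Cxcl2 passed no test over all arrays, and Cxcl3 was not tested. RefSeq promoters (mouse build GRCm38.p6) of 300 bases, nearly all of them before the start site, were found for 29 of the 41 genes, and 9 of their 33 promoters (27.3%) held the NF-kB consensus on either strand, against 8.46% of all 32851 promoters in the table. Of the other genes that rose at 19 days, Il33, Cxcl13, Lcn2 and Cx3cl1 had promoters without a match. No promoter was found for Cxcl5, Ccl2, Ccl7 and Cxcl16. The consensus has ambiguous bases and is given by name. Each sequence is written 5′ to 3′ along the gene, with the matches in capitals. A match is only a string of letters in this window and says nothing of binding. Cxcl1 (chr5:90890995-90891294), Cxcl2 (chr5:90903649-90903948) and Cxcl3 (chr5:90785851-90786150) lie on the plus strand and Csf1 (chr3:107760420-107760719) on the minus strand.
Cxcl1: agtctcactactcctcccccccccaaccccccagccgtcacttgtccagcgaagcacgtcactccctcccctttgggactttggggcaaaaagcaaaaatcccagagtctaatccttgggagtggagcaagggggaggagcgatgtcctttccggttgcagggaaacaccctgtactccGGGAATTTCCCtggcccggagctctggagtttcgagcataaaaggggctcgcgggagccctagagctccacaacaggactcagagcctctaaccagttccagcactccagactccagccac
Cxcl2: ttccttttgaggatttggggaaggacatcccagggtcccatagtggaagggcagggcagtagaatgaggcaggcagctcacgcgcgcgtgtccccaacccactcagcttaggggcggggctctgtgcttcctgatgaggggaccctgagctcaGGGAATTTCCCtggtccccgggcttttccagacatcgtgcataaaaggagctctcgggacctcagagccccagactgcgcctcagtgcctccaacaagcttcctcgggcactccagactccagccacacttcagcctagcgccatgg
Cxcl3: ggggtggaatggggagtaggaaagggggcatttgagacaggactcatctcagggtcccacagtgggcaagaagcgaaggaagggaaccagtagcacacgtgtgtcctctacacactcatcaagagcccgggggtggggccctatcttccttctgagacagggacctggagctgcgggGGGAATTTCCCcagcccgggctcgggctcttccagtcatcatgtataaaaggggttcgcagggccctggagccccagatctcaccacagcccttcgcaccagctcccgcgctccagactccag
Csf1: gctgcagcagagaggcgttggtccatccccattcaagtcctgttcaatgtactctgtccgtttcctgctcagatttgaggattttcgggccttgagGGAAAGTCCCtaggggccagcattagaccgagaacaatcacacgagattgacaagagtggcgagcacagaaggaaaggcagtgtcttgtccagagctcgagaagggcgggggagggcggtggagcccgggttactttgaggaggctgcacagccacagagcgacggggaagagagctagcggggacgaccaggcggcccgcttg
Cxcl1, Cxcl2 and Cxcl3 carry the same run of letters, in which 2 matches overlap, 1 on each strand. It begins 71 bases before the start site in Cxcl1, 97 in Cxcl2 and 73 in Cxcl3. Csf1 carries a different match 154 bases before its start site. The TATA box TATAAA was in 39.4% of the members' promoters, against 13.6% of all promoters, and the AP-1 motif TGANTCA in 18.2%, against 7.81%. Motifs were searched on both strands.

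**Figure D1:**
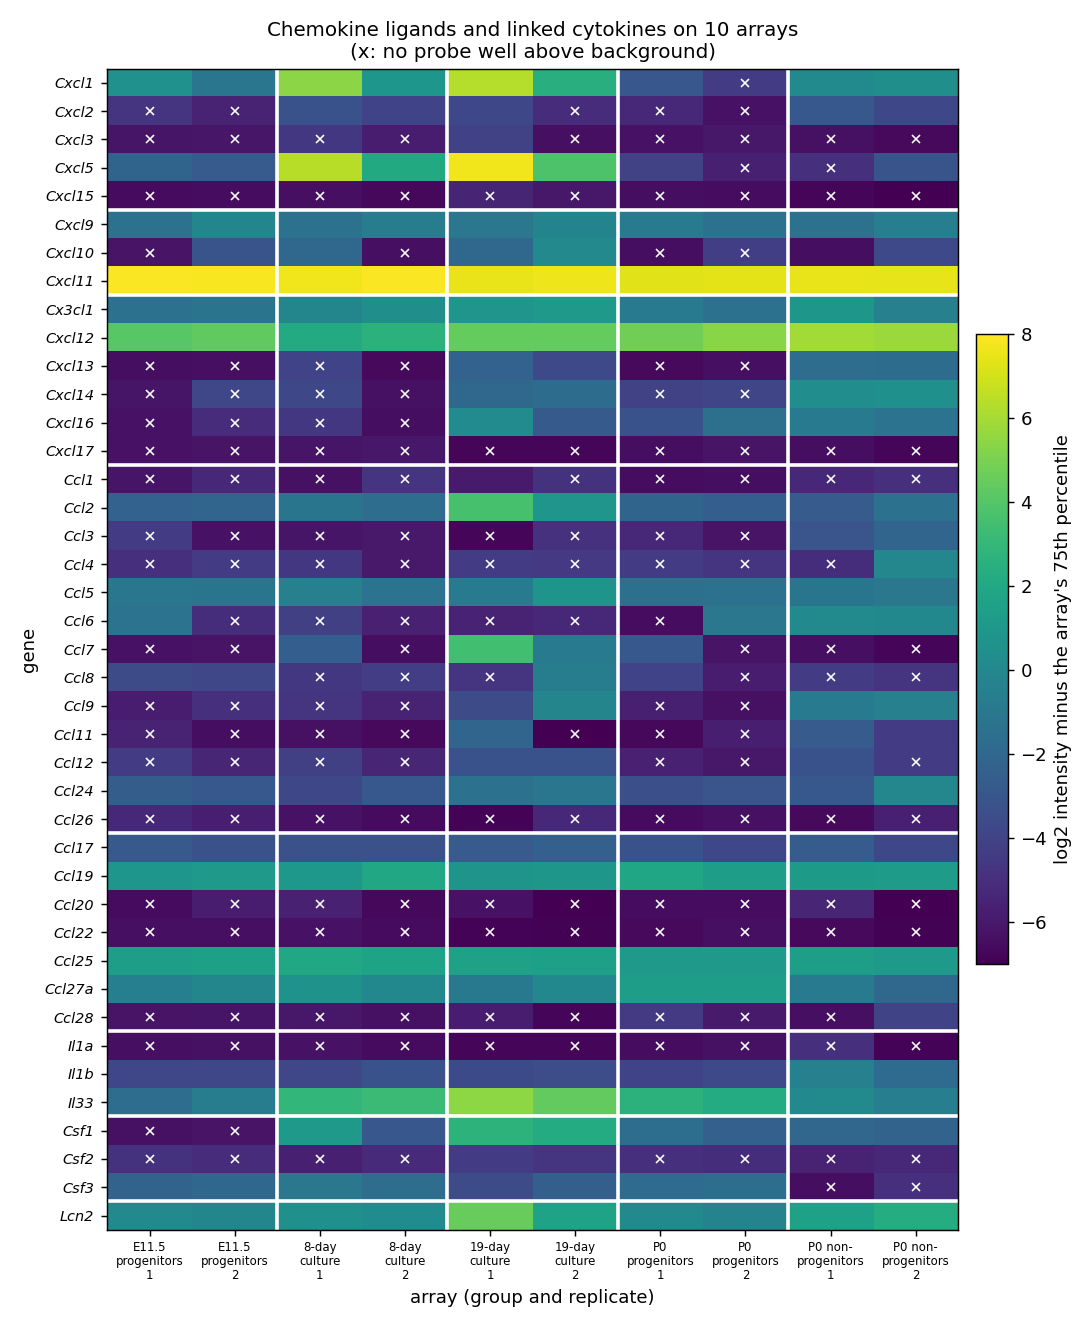
Log2 level minus the array's 75th percentile (colour) of the genes of the rule (rows, by role) on each of the 10 arrays (columns), with an x where a gene was not well above background by any probe. Cxcl5, Csf1, Ccl7 and Il33 are at their highest in the 19-day culture, and Ccl9, Cxcl14, Il1b and Cxcl13 are high in P0 non-progenitors and low in P0 progenitors.

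After 19 days in culture, 6 chemokine ligands of several roles, 2 cytokines and Lcn2 were higher than in E11.5 progenitors. Of the 31 tested genes, 9 rose (Cxcl5, Csf1, Ccl7, Il33, Cxcl16, Ccl2, Cxcl13, Lcn2 and Cx3cl1) and 1 fell (Cxcl11), while 21 did not pass. Over all tested genes, 16.8% passed, 7.23% as higher and 9.59% as lower. The median change over all 41 genes was 0.73, against -0.1 over all genes on the array. The 2 arrays of the 19-day culture lay entirely above those of E11.5 progenitors for 21 of the 41 genes and entirely below for 6, against 30% of tested genes in each direction. Here and below, such counts include the untested genes of the 41, which the shares leave out. Of the genes entirely below, Ccl22, Cxcl17 and Il1a were above background on no array, and neither was Cxcl15 among those above. At 8 days, 2 of the 31 rose (Csf1 and Il33) and 1 fell (Cxcl12), where 4.8% of all tested genes passed, 2.76% as higher and 2.04% as lower. The 8-day arrays lay entirely above the E11.5 arrays for 14 of the 41 genes and entirely below for 4, against 24.5% and 21% of tested genes, and the median change was 0.18, against -0.01. Between 8 and 19 days, 3 rose (Ccl2, Cxcl12 and Il33) and none of the others passed limma's test, where 8.07% of all tested genes passed, 2.67% as higher and 5.4% as lower, and 14 of the 31 had an unadjusted p below 0.05. The 19-day arrays lay entirely above the 8-day arrays for 17 of the 41 genes and entirely below for 7, against 25.6% and 27.4% of tested genes, and the median change was 0.78, against -0.1.

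The E11.5 and 19-day arrays lie on different slides. All freshly sorted cells and replicate 1 of the 8-day culture shared slide 1, and replicate 2 of the 8-day culture and both 19-day arrays shared slide 2. Slide and culture can be separated only through the 8-day arrays, and a fit with slide as a block kept 5 of the 10 calls of the 19-day culture against E11.5 progenitors (Csf1, Il33, Cxcl5, Cxcl13 and Cxcl11). The 5 lost were Ccl2 (4.92, adjusted p 0.13), Ccl7 (11.45, adjusted p 0.0647), Cx3cl1 (1.7, adjusted p 0.307), Cxcl16 (6.32, adjusted p 0.111) and Lcn2 (3.27, adjusted p 0.264). On slide 1 alone, 8-day replicate 1 against E11.5 progenitors, Csf1 (7.38, adjusted p 0.0108), Il33 (4.11, adjusted p 0.0335) and Cxcl12 (-2.03, adjusted p 0.0337) passed limma's test, and so did Cxcl5 (8.84, adjusted p 0.0299) and Cxcl1 (5.69, adjusted p 0.0476), which did not pass at 8 days over all arrays. That comparison assumes that the single culture array varies like the other groups.

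Calls also rested on single arrays. When each of the 10 arrays was left out in turn, Csf1, Il33 and Ccl2 in the 19-day culture and Il33 and Cxcl12 in the 8-day culture, all against E11.5 progenitors, and Cxcl12 between 8 and 19 days passed limma's test in all 10 fits. Each of the other 19 calls was lost in at least 2 of the 10, counting all 5 comparisons. Such a fit leaves 1 array in a group and assumes that it varies like the others.

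**Figure D2:**
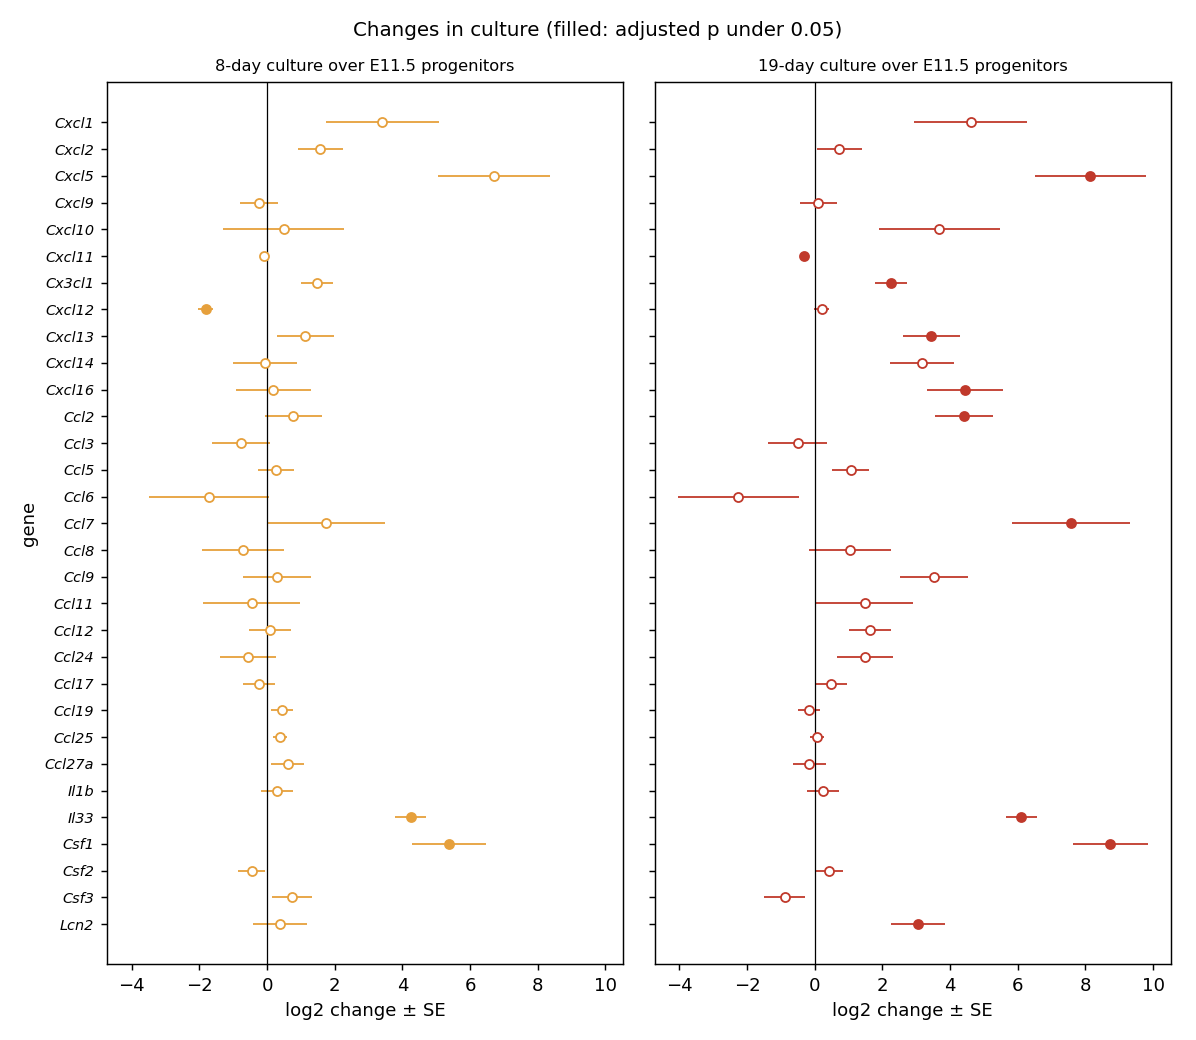
Log2 changes with SE (x axes) of the tested genes (y axis), for 8-day culture (left) and 19-day culture (right), each against E11.5 progenitors, with filled points for genes that passed limma's test at an adjusted p of 0.05. Il33 and Csf1 lie to the right of 0 in each comparison with E11.5 progenitors, and Cxcl12 lies left of 0 at 8 days (-1.81) and near 0 at 19 days (0.21).

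The neutrophil-attracting CXC ligands (ELR type) lie in 1 cluster on chromosome 5 and signal through Cxcr2. Cxcl5 had levels of -2.19 and -2.67 in E11.5 progenitors, 6.41 and 2.13 in 8-day culture and 7.65 and 3.79 in 19-day culture (probe at chr5:91190490-91190549, mouse build mm9). Both cultures lay above the fresh cells without overlap, and replicate 1 was higher in each culture, by 4.28 at 8 days and 3.86 at 19 days. Cxcl5 rose 284-fold at 19 days (8.15 ± 1.65 SE, adjusted p = 0.0152), and the 104-fold difference at 8 days did not pass (6.7 ± 1.65, adjusted p = 0.0649). The 19-day call was lost without 19-day replicate 1 (6.22, adjusted p 0.0804) and without E11.5 replicate 2 (7.91, adjusted p 0.0572). In P0 cells Cxcl5 was above background on 1 array of each group, at levels of -4.05 and -5.68 in P0 progenitors and -4.99 and -3.08 in P0 non-progenitors.

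Cxcl1, the mouse keratinocyte chemoattractant, had levels of 0.56 and -1.09 in E11.5 progenitors, 5.42 and 0.86 in 8-day culture and 6.31 and 2.39 in 19-day culture (chr5:91321845-91321904, mm9). As for Cxcl5, the cultures lay above the fresh cells and their first replicates were the higher ones. The differences of 10.6-fold at 8 days (3.41 ± 1.67, adjusted p = 0.313) and 24.5-fold at 19 days (4.61 ± 1.67, adjusted p = 0.106) did not pass. At birth Cxcl1 had levels of -2.95 and -4.36 in P0 progenitors, against 0.18 and 0.48 in P0 non-progenitors, with no overlap and 1 of the P0 progenitor arrays above background. The difference did not pass over all arrays (-3.98, adjusted p = 0.221) and passed on slide 1 alone (adjusted p 0.0342).

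Cxcl2 was near background throughout, with levels of -4.73 and -5.58 in E11.5 progenitors, -3.2 and -3.97 in 8-day culture, -3.76 and -5.09 in 19-day culture, -5.3 and -6.28 in P0 progenitors and -2.89 and -3.73 in P0 non-progenitors. It was above background on both arrays of 8-day culture and of P0 non-progenitors and on 1 of 19-day culture, and the difference between the P0 groups did not pass (-2.48, adjusted p = 0.0643). Cxcl3 was above background only on 19-day replicate 1, at a level of -4.12, and Cxcl15, also called lungkine, on none. Of the 5 ligands of this type 3 were tested, and Cxcl5 alone passed a test over all arrays.

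**Figure D3:**
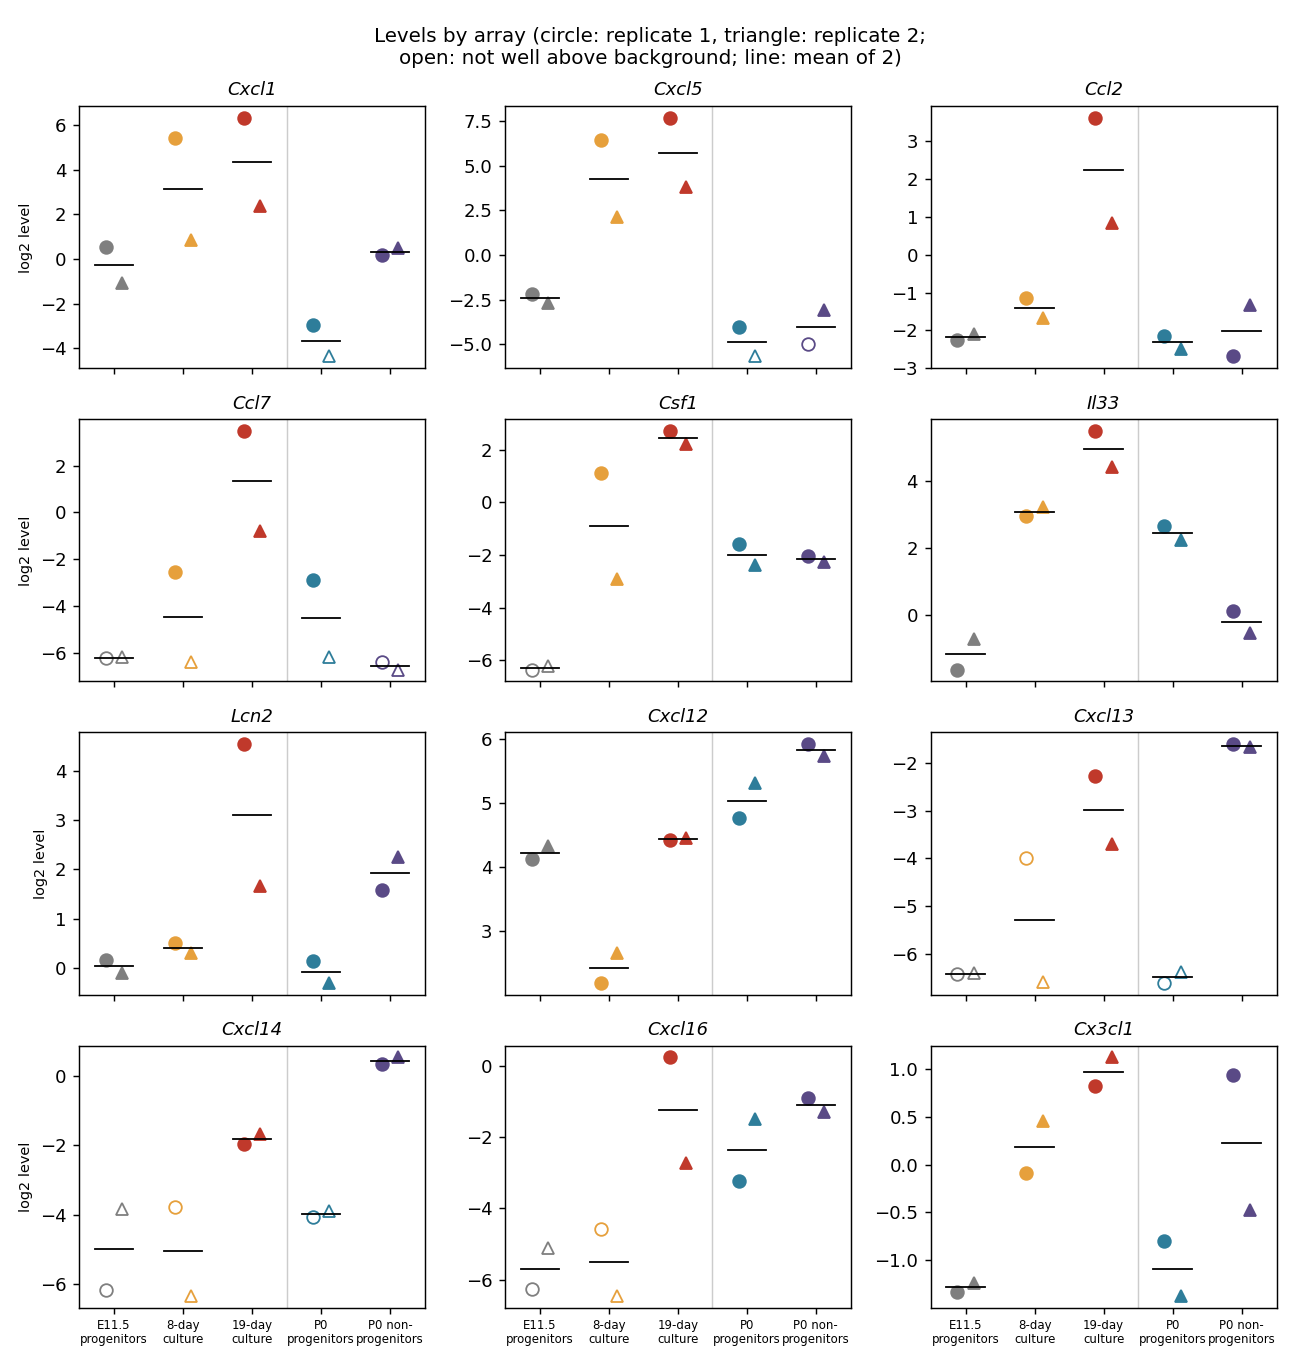
Log2 level minus the array's 75th percentile (y axes) of single genes on each array (circle for replicate 1, triangle for replicate 2, open where not well above background) of each group (x axes), with lines at the means of 2 arrays. The first replicate of each culture is the higher one for Cxcl5 (6.41 against 2.13 at 8 days, 7.65 against 3.79 at 19 days) and for Cxcl1.

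None of the 3 interferon-inducible ligands of Cxcr3 passed as higher in culture. Cxcl10, which attracts activated T cells, had levels of -6.21 and -3.09 in E11.5 progenitors, -1.94 and -6.38 in 8-day culture and -2.01 and 0.07 in 19-day culture. The 19-day arrays lay above the E11.5 arrays and overlapped the 8-day arrays, the replicates of each group were far apart, and the difference at 19 days did not pass (3.68 ± 1.79, adjusted p = 0.218). At birth Cxcl10 had levels of -6.42 and -4.2 in P0 progenitors, against -6.44 and -3.67 in P0 non-progenitors, which overlap. A second probe for Cxcl10 was above background on both P0 non-progenitor arrays and had a lower value in P0 progenitors (-3.75), so the probes disagree.

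Cxcl9 had levels of -1.38 and -0.12 in E11.5 progenitors, -1.33 and -0.65 in 8-day culture and -1.05 and -0.25 in 19-day culture, and of -0.81 and -1.36 in P0 progenitors, against -1.36 and -0.56 in P0 non-progenitors. All 5 groups overlap. A second probe for Cxcl9 (chr5:92752191-92752250, mm9) was above background on 19-day replicate 2 alone, at -2.82, with a change of 1.54 at 19 days, so these probes disagree too. Cxcl11 was at 7.33 to 7.92 on all 10 arrays, and its changes of -0.33 ± 0.09 at 19 days (1.25-fold lower, adjusted p = 0.0487) and -0.53 ± 0.09 in P0 progenitors against E11.5 progenitors (1.44-fold lower, adjusted p = 0.0257) passed. With quantile normalisation the 19-day change was 0.04 (adjusted p 0.702), and whether the probe reports Cxcl11 was not tested.

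Cxcl12, the ligand of Cxcr4 and Ackr3 that guides migrating cells in embryos, had levels of 4.12 and 4.33 in E11.5 progenitors, 2.19 and 2.65 in 8-day culture and 4.43 and 4.45 in 19-day culture (chr6:117131227-117131286, mm9). The 8-day arrays were the low ones, with no overlap with either neighbour. Cxcl12 was 3.5-fold lower at 8 days than in E11.5 progenitors (-1.81 ± 0.22, adjusted p = 0.0091) and 4.06-fold higher at 19 than at 8 days (2.02 ± 0.22, adjusted p = 0.0038). At birth it had levels of 4.77 and 5.31 in P0 progenitors, against 5.92 and 5.73 in P0 non-progenitors, which did not overlap and did not pass. Its second probe (chr6:117125026-117125085) also fell at 8 days (-4.37) and had a lower value at 19 days (-2.03) and in P0 progenitors against E11.5 progenitors (-2.86), where the first was level or higher.

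Cxcl16, a membrane-bound ligand of Cxcr6, had levels of -6.27 and -5.1 in E11.5 progenitors, -4.57 and -6.45 in 8-day culture and 0.24 and -2.73 in 19-day culture. It was above background at 19 days and on neither array of the other 2 groups, so the rise is at least 7.87-fold (4.44 ± 1.11, adjusted p = 0.0328). The call was lost in 5 of 10 fits that left out 1 array, with a value of 2.96 (adjusted p 0.155) without 19-day replicate 1. P0 progenitors, at -3.24 and -1.48, lay below P0 non-progenitors, at -0.9 and -1.28, and the difference did not pass.

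Cx3cl1, or fractalkine, the ligand of Cx3cr1, had levels of -1.33 and -1.24 in E11.5 progenitors, -0.09 and 0.46 in 8-day culture and 0.82 and 1.12 in 19-day culture. The 3 groups were ordered by time without overlap, and the 4.75-fold rise at 19 days passed (2.25 ± 0.48, adjusted p = 0.0187). It was lost when either array of either group was left out (2.1 to 2.4, adjusted p 0.0571 to 0.0826). P0 progenitors had levels of -0.8 and -1.37, against 0.94 and -0.47 in P0 non-progenitors, and the difference did not pass.

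Cxcl13, which draws B cells through Cxcr5, and Cxcl14, an epithelial and stromal chemokine, were above background in 19-day culture and in P0 non-progenitors and in no other group. Cxcl13 had levels of -6.42 and -6.4 in E11.5 progenitors, -3.99 and -6.59 in 8-day culture and -2.27 and -3.69 in 19-day culture, a rise of at least 2.37-fold at 19 days (3.44 ± 0.84, adjusted p = 0.0311) that was lost in 7 of the 10 fits that left out 1 array (2.73, adjusted p 0.165, without 19-day replicate 1). Cxcl14 had levels of -6.16 and -3.82 in E11.5 progenitors, -3.77 and -6.33 in 8-day culture and -1.95 and -1.67 in 19-day culture, and its difference at 19 days did not pass (3.18, adjusted p = 0.0605).

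Among the inflammatory CC ligands, 2 of the 10 tested rose in culture, and both are monocyte chemoattractants acting on Ccr2. Ccl2 had levels of -2.26 and -2.1 in E11.5 progenitors, -1.15 and -1.66 in 8-day culture and 3.61 and 0.85 in 19-day culture (chr11:81850650-81850709, mm9). The 3 groups were ordered by time without overlap. Ccl2 was 21.3-fold higher at 19 days than in E11.5 progenitors (4.41 ± 0.85, adjusted p = 0.0126) and 12.4-fold higher than at 8 days (3.64 ± 0.85, adjusted p = 0.0426), a call lost in 9 of the 10 fits that left out 1 array. It is read by 10 spots per array, whose SD was 0.06 to 0.24, well under the difference of 2.75 between the 19-day arrays. In P0 cells Ccl2 had levels of -2.14 and -2.5 in progenitors, against -2.69 and -1.34 in non-progenitors, which overlap.

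Ccl7, encoded next to Ccl2, had levels of -6.25 and -6.2 in E11.5 progenitors, -2.54 and -6.42 in 8-day culture and 3.48 and -0.78 in 19-day culture (chr11:81860656-81860715, mm9). It was above background on both 19-day arrays, 1 8-day array and neither E11.5 array. No other group had both arrays above background, so Ccl7 entered the test through the 19-day culture alone. The rise at 19 days was at least 47.6-fold (7.58 ± 1.75, adjusted p = 0.0252). It was lost without 19-day replicate 1 (5.44, adjusted p 0.127) and without E11.5 replicate 1 (7.55, adjusted p 0.08) or 2 (7.6, adjusted p 0.077). P0 progenitors read -2.88 and -6.18, against -6.4 and -6.73 in P0 non-progenitors.

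The other genes of the same stretch of chromosome 11, the eotaxin Ccl11 and the monocyte chemoattractants Ccl12 and Ccl8, passed no test. Ccl11 had levels of -5.58 and -6.46 in E11.5 progenitors, -6.31 and -6.62 in 8-day culture, -2.11 and -6.97 in 19-day culture, -6.66 and -5.74 in P0 progenitors and -2.67 and -4.42 in P0 non-progenitors. Ccl12 had levels of -4.33 and -5.39 in E11.5 progenitors, -4.18 and -5.37 in 8-day culture, -3.22 and -3.25 in 19-day culture, -5.65 and -6.04 in P0 progenitors and -3.22 and -4.33 in P0 non-progenitors. Ccl8 had levels of -3.59 and -3.83 in E11.5 progenitors, -4.58 and -4.28 in 8-day culture, -4.72 and -0.65 in 19-day culture, -4.01 and -5.83 in P0 progenitors and -4.31 and -4.75 in P0 non-progenitors. In culture a single 19-day array stood out for Ccl11 (replicate 1) and for Ccl8 (replicate 2).

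Ccl9, Ccl6 and Ccl3, all ligands of Ccr1 made by myeloid cells, were above background on both arrays of P0 non-progenitors. Ccl9 had levels of -5.7 and -6.33 in P0 progenitors, against -0.8 and -0.45 in P0 non-progenitors, and was at least 12.6-fold lower in progenitors (-5.39 ± 1, adjusted p = 0.0183). In culture Ccl9 had levels of -5.77 and -4.99 in E11.5 progenitors, -4.66 and -5.5 at 8 days and -3.55 and -0.16 at 19 days, and the 19-day difference did not pass (3.53, adjusted p = 0.0503). Both 19-day arrays were above background, with replicate 2 the higher one.

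Ccl6 had levels of -6.52 and -1.06 in P0 progenitors, against 0.18 and 0.01 in P0 non-progenitors, and of -1.31 and -5.04 in E11.5 progenitors, -4.15 and -5.64 in 8-day culture and -5.52 and -5.35 in 19-day culture. Ccl3 had levels of -5.34 and -6.23 in P0 progenitors, against -3.05 and -2.1 in P0 non-progenitors, which did not pass (-3.21, adjusted p = 0.0653), and was above background in no culture. Neither gene's P0 groups overlapped. Ccl3 had levels of -4.31 and -6.26 in E11.5 progenitors, -6.14 and -5.98 at 8 days and -6.73 and -4.86 at 19 days.

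Ccl5, a T cell and monocyte attractant, had levels of -1.09 and -1.15 in E11.5 progenitors, -0.44 and -1.28 in 8-day culture, -0.88 and 0.77 in 19-day culture, -1.46 and -1.41 in P0 progenitors and -1.16 and -1.06 in P0 non-progenitors. Ccl24, an eosinophil attractant, had levels of -2.58 and -2.89 in E11.5 progenitors, -3.76 and -2.84 in 8-day culture, -1.36 and -1.12 in 19-day culture, -3.33 and -3.06 in P0 progenitors and -2.87 and -0.07 in P0 non-progenitors. Both were above background on all 10 arrays and passed no test, with 19-day arrays above E11.5 arrays for each.

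Among the homeostatic and mucosal CC ligands, none of the 4 tested passed limma's test in a culture comparison, and the median change over all 7 was -0.16 at 19 days. Ccl17, a ligand of Ccr4, was at -3.77 to -2.42 on the 10 arrays, Ccl19, a ligand of Ccr7, at 0.77 to 1.93, and Ccl25, a ligand of Ccr9, at 1.08 to 1.93. Their probes do not all agree. For P0 against E11.5 progenitors, the Ccl19 probes not used changed by 2.31 and 0.77. Those of Ccl25 changed by 2.92, 0.03 and -0.46 in that comparison and by 1.92, 0.08 and 0.93 at 19 days. Ccl27a, a ligand of Ccr10, had levels of 1.35 and 1.42 in P0 progenitors, against -0.76 and -1.94 in P0 non-progenitors, and was 6.63-fold higher in progenitors (2.73 ± 0.49, adjusted p = 0.0163). The 2 groups did not overlap. Its levels were -0.51 and -0.09 in E11.5 progenitors, 0.62 and 0 in 8-day culture and -0.93 and 0 in 19-day culture. Ccl27a and Ccl19 have near-identical copies in the mouse genome, so their probes may read more than 1 gene.

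Il33, a nuclear alarmin of the interleukin-1 family, was the member with the smallest adjusted p in culture. It had levels of -1.64 and -0.72 in E11.5 progenitors, 2.93 and 3.2 in 8-day culture and 5.47 and 4.39 in 19-day culture (chr19:30035101-30035160, mm9). The 3 groups were ordered by time without overlap. Il33 was 19-fold higher at 8 days (4.24 ± 0.45, adjusted p = 0.00553) and 69.1-fold higher at 19 days than in E11.5 progenitors (6.11 ± 0.45, adjusted p = 0.000398). The 3.64-fold rise between 8 and 19 days (1.87 ± 0.45, adjusted p = 0.0494) was lost in 7 of the 10 fits that left out 1 array.

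Il33 was also the member higher in progenitors in both comparisons at birth. P0 progenitors had levels of 2.63 and 2.23, against 0.1 and -0.56 in P0 non-progenitors, a 6.33-fold difference (2.66 ± 0.45, adjusted p = 0.0141). Against E11.5 progenitors the difference was 12.2-fold (3.61 ± 0.45, adjusted p = 0.01). It was lost without P0 progenitor replicate 1 (3.41, adjusted p 0.0815) or 2 (3.81, adjusted p 0.0673), and the contrast with P0 non-progenitors was lost in 3 of the 10 fits that left out 1 array. From high to low the groups ran 19-day culture, 8-day culture, P0 progenitors, P0 non-progenitors and E11.5 progenitors, with no overlap between neighbours.

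Il1b, a cytokine of the interleukin-1 family, had levels of -3.99 and -3.7 in P0 progenitors, against -0.46 and -1.73 in P0 non-progenitors, and was 6.71-fold lower in progenitors (-2.75 ± 0.48, adjusted p = 0.0152). In culture it had levels of -3.82 and -3.79 in E11.5 progenitors, -3.79 and -3.22 at 8 days and -3.66 and -3.46 at 19 days, close to the lowest levels called above background. The P0 groups did not overlap, and the call was lost without P0 non-progenitor replicate 1 (-2.11, adjusted p 0.0694) and without either P0 progenitor array.

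Csf1, the growth factor of macrophages and ligand of Csf1r, had levels of -6.35 and -6.22 in E11.5 progenitors, 1.1 and -2.92 in 8-day culture and 2.7 and 2.21 in 19-day culture (chr3:107544333-107544392, mm9). It was above background on no E11.5 array and on both arrays of every other group. The rise was at least 9.92-fold at 8 days (5.37 ± 1.1, adjusted p = 0.0399) and at least 102-fold at 19 days (8.74 ± 1.1, adjusted p = 0.00256). The 8-day call was lost in 8 of the 10 fits that left out 1 array. The other 2 Csf1 probes changed by 2.65 and 3.49 at 8 days and by 5.82 and 6.63 at 19 days. For P0 against E11.5 progenitors they changed by only 0.11 and 2.07. The first of them was above background on no P0 array and the second on 1 array of each P0 group, so the probes disagree at birth. P0 progenitors had levels of -1.6 and -2.39, against -2.04 and -2.25 in P0 non-progenitors, which overlap, and their difference from E11.5 progenitors did not pass (4.29, adjusted p = 0.0836), though it did on slide 1 alone (adjusted p 0.0155).

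Csf3, the granulocyte growth factor, had levels of -1.73 and -1.56 in P0 progenitors, against -6.43 and -4.91 in P0 non-progenitors, and was at least 7.46-fold higher in progenitors (4.02 ± 0.6, adjusted p = 0.00862). It had levels of -2.25 and -1.93 in E11.5 progenitors, -1.05 and -1.66 in 8-day culture and -3.54 and -2.43 in 19-day culture, and no culture comparison passed. P0 non-progenitors were thus the 1 group without a signal for Csf3. Csf2 was above background only on the 19-day arrays, at -4.4 and -4.66, and was at -5.71 to -4.8 on the other 8.

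Lcn2, an iron-binding secreted protein used as a marker of kidney tubule injury, had levels of 0.16 and -0.09 in E11.5 progenitors, 0.52 and 0.31 in 8-day culture and 4.53 and 1.66 in 19-day culture (chr2:32240199-32240258, mm9). The 3 groups were ordered by time without overlap, with 19-day replicate 1 far above the rest. The 8.33-fold rise at 19 days passed (3.06 ± 0.8, adjusted p = 0.0382) and was lost in 9 of the 10 fits that left out 1 array, with values of 1.62 (adjusted p 0.0519) without 19-day replicate 1 and 4.49 (adjusted p 0.00159) without replicate 2. P0 progenitors had levels of 0.14 and -0.29, against 1.59 and 2.26 in P0 non-progenitors, which did not overlap and did not pass over all arrays (-2, adjusted p = 0.197) but did on slide 1 alone (adjusted p 0.0268).

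At birth, 7 of the 31 tested genes passed between P0 progenitors and P0 non-progenitors, where 8.38% of all tested genes passed, 4.23% as higher and 4.15% as lower. Il33, Ccl27a and Csf3 were higher in progenitors, and Ccl9, Cxcl13, Cxcl14 and Il1b were lower. Cxcl13 had levels of -6.6 and -6.38 in P0 progenitors, against -1.61 and -1.67 in P0 non-progenitors, and was at least 6.23-fold lower in progenitors (-4.85 ± 0.84, adjusted p = 0.0149). Cxcl14 had levels of -4.07 and -3.88 in P0 progenitors, against 0.33 and 0.53 in P0 non-progenitors, and was at least 21.2-fold lower (-4.41 ± 0.95, adjusted p = 0.0314). The 2 arrays of P0 progenitors lay entirely below those of P0 non-progenitors for 18 of the 41 genes and entirely above for 9, against 22.9% and 33% of tested genes. The 41 include untested genes, which the shares leave out. The median change was -0.32 over the 41 genes and 0.14 over all genes on the array.

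Between P0 and E11.5 progenitors, 2 of the 31 genes passed, Il33 as higher and Cxcl11 as lower, where 3.95% of all tested genes passed, 2.03% as higher and 1.92% as lower. P0 arrays lay entirely above E11.5 arrays for 10 of the 41 genes, untested ones included, and entirely below for 10, against 20.1% and 32.5% of tested genes. The median change was -0.11, against -0.09 over all genes on the array. All arrays of the birth comparisons lay on slide 1, and the slide block left these calls in place. Both comparisons use the P0 progenitor arrays, and all calls of P0 progenitors against P0 non-progenitors were lost in 2 or more fits that left out 1 array, for example Csf3 without P0 progenitor replicate 1 (4.11, adjusted p 0.0556) or 2 (3.93, adjusted p 0.0652).

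**Figure D4:**
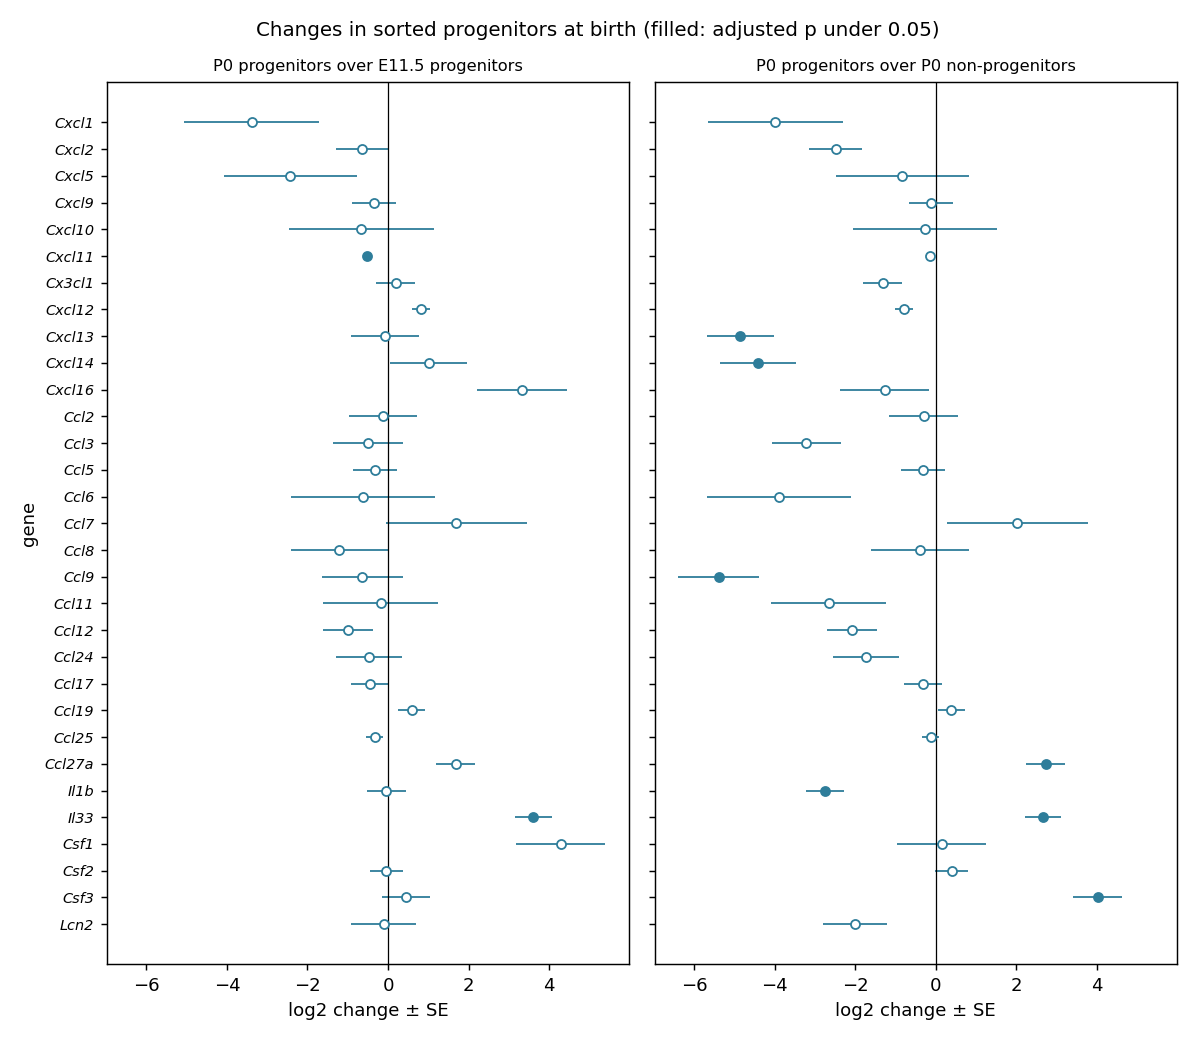
Log2 changes with SE (x axes) of the tested genes (y axis) for P0 progenitors against E11.5 progenitors (left) and against P0 non-progenitors (right), with filled points for genes that passed limma's test at an adjusted p of 0.05. Il33 lies to the right of 0 in both (3.61 and 2.66), and Ccl9, Cxcl13, Cxcl14 and Il1b are the filled points left of 0 against P0 non-progenitors.

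By the median difference, the arrays of a group differed for these genes by more than over all tested genes, except in E11.5 progenitors. Of the 41 genes, 28 (68.3%) were higher on replicate 1 of the 8-day culture, against 41.7% of tested genes. Of these, 13 were higher by at least 1 log2 unit, against 1 gene higher by that much on replicate 2, where 10.4% and 12.3% of tested genes were. Among the 13, Ccl4, Ccl6, Ccl12, Ccl20, Cxcl3, Cxcl13, Cxcl14 and Cxcl16 were above background on neither 8-day array. The 41 include untested genes, which the shares leave out. Some of these, such as Ccl22, Ccl26, Ccl28, Cxcl15 and Il1a, lay at background and were higher on replicate 1 by 0.29 to 0.32. In the 19-day culture 11 were higher by at least 1 on replicate 1, including Cxcl1, Cxcl5, Ccl2, Ccl7 and Lcn2, and 8 on replicate 2, including Cxcl10, Ccl8 and Ccl9. The median difference between the 19-day arrays was 0.87 over the 41 genes, against 0.35 over all tested genes, and between the 8-day arrays 0.63, against 0.46. It was 0.31 between the E11.5 arrays, against 0.42, 0.39 between the P0 progenitor arrays, against 0.31, and 0.66 between the P0 non-progenitor arrays, against 0.35.

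Of 25 listed chemokine receptors, 16 were tested, none rose in culture, and Cxcr4 and Ackr3, both receptors of Cxcl12, fell. Over all tested genes, 7.23% rose and 9.59% fell at 19 days, and 2.76% rose and 2.04% fell at 8 days. Cxcr4 had levels of 5.53 and 5.17 in E11.5 progenitors, 3.49 and 6.45 in 8-day culture and -6.77 and -0.33 in 19-day culture, with a change at 19 days of -8.9 ± 1.86 against E11.5 progenitors (adjusted p = 0.0172) and of -8.52 ± 1.86 against 8-day culture (adjusted p = 0.0337). Both 19-day arrays were low, but replicate 1 was not above background, so the size of the fall is uncertain. Without it the changes were -5.68 (adjusted p 0.0265) and -5.3 (adjusted p 0.0557), an alternative chosen after seeing the data. Ackr3 had levels of -1.16 and -0.91 in E11.5 progenitors, -6.2 and -6.47 in 8-day culture and -2.56 and -6.66 in 19-day culture, at least 8.95-fold lower at 8 days (-5.29 ± 1.11, adjusted p = 0.0424).

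Cxcr2, the receptor of Cxcl1 and Cxcl5, was at -4.4 to -4.09 in the 3 groups of the culture series, near the lowest levels called above background, and passed no test. Cxcr6, the receptor of Cxcl16, had levels of -4.15 and -6.18 in E11.5 progenitors, 0.34 and -2.25 in 8-day culture and -2.33 and 0.07 in 19-day culture, above background in both cultures, and did not pass (4.04, adjusted p = 0.114 at 19 days). Cx3cr1, the receptor of Cx3cl1, had levels of -2.42 and -6.13 in E11.5 progenitors, -6.09 and -5.99 in 8-day culture and -3.96 and -1.06 in 19-day culture. It was above background on both 19-day arrays and on neither 8-day array, and did not pass as higher in culture. At birth Cx3cr1, at -6.35 and -5.69 in P0 progenitors, against 0.58 and 1.68 in P0 non-progenitors, was at least 42.4-fold lower in progenitors (-7.15 ± 1.3, adjusted p = 0.0175), and Ccr2 was at least 1.22-fold lower (adjusted p = 0.0229). Both are carried by monocytes and macrophages.

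Among the interleukin-1 receptors and their signalling proteins, Il1r1, the signalling receptor of interleukin 1, had levels of -6.33 on both E11.5 arrays, 0 and 0.01 in 8-day culture and 3.3 and 2.43 in 19-day culture. It rose at least 18.7-fold at 8 days (6.33 ± 0.37, adjusted p = 0.000739) and at least 136-fold at 19 days (9.19 ± 0.37, adjusted p = 4.53e-05), and the groups did not overlap. Of the 12 genes of this list that were tested, 5 rose and 2 fell at 19 days, where 7.23% of all tested genes rose and 9.59% fell. The kinases and adaptors Irak3 (at least 11.3-fold, adjusted p = 0.00571), Irak4 (at least 8.61-fold, adjusted p = 0.00101) and Myd88 (at least 8.31-fold, adjusted p = 0.00162) were among those that rose, and the cytokine Il18 fell (at least 2.38-fold, adjusted p = 0.0226). Il1rl1, the receptor of Il33, had levels of -4.36 and -4.85 in E11.5 progenitors, -3.83 and -4.63 in 8-day culture and -3.42 and -4.39 in 19-day culture and passed no test. P0 progenitors were at least 19.1-fold lower in Il1r1 than P0 non-progenitors (-4.43, adjusted p = 0.00127).

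A list of 8 genes held the receptors of the colony stimulating factors and of Lcn2 and also Il34, a second ligand of Csf1r. None of the 8 passed as higher in culture, where 7.23% of all tested genes rose at 19 days and 2.76% at 8 days. Il34 had levels of -4.04 and -4.01 in E11.5 progenitors, -2.7 and -3.66 in 8-day culture and 0.45 and 1.19 in 19-day culture, and its 28.8-fold difference at 19 days did not pass (4.85 ± 1.53, adjusted p = 0.0722). Its 19-day arrays lay above the others. Csf1r was at 3.78 to 4.19 on all 10 arrays and passed no test, and whether its probe reports the receptor was not tested. Csf3r was also high and nearly level on all 10 arrays, with a 1.49-fold lower value at 19 days (-0.57, adjusted p = 0.00817), and whether its probe reports the receptor was not tested either. Lrp2, an endocytic receptor of Lcn2 in tubules, fell at least 14.9-fold at 19 days (-4.38, adjusted p = 0.0182). In P0 progenitors against P0 non-progenitors, Csf2ra was 3.07-fold higher (1.62, adjusted p = 0.0291), and Slc22a17, another receptor of Lcn2, 3.03-fold higher (1.6, adjusted p = 0.0229).

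Chemokines whose names the rule does not take were few. Pf4, which is Cxcl4 under its older name and is known from platelets, had levels of -6.41 and -6.38 in E11.5 progenitors, 1.19 and 0.84 in 8-day culture and -3.8 and 0.67 in 19-day culture, and rose at least 37.8-fold at 8 days (7.42 ± 1.19, adjusted p = 0.0218) and at least 6.3-fold at 19 days (4.83 ± 1.19, adjusted p = 0.0319). P0 progenitors, at -6.59 and -6.37, lay at least 38.2-fold below P0 non-progenitors, at 0.89 and 1.06 (adjusted p = 0.0113). Rarres2, or chemerin, rose 9.94-fold at 19 days (3.31, adjusted p = 0.0344), and Mif fell 1.59-fold (-0.67, adjusted p = 0.00569).

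Some other genes known to be induced by NF-kB rose at 19 days. Of 26 tested, 12 rose, none fell and 14 did not pass at 19 days, with a median change of 2.83 over the list. At 8 days 1 rose. Over all tested genes, 7.23% rose at 19 days and 2.76% at 8 days. Examples, with a log2 change or a bound on the fold, are the inhibitor-like regulator Bcl3 (6.25, adjusted p = 0.00064), the pentraxin Ptx3 (5.19, adjusted p = 0.000868) and the proteases Mmp3 (at least 722-fold, adjusted p = 0.00239) and Mmp13 (at least 59.9-fold, adjusted p = 0.0133), while Cebpd (5.7, adjusted p = 0.0519) and the acute-phase protein Saa3 (at least 231-fold, adjusted p = 0.0859) did not pass. The list's mean level by array was -2.7 and -2.97 in E11.5 progenitors, -0.52 and -2.16 in 8-day culture and 1.04 and -0.25 in 19-day culture. Replicate 1 of each culture was the higher, as for Cxcl1 and Cxcl5.

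Of 21 tested interferon-induced genes, 13 rose and none fell at 19 days, where 7.23% of all tested genes rose. The median change was 4.12, while none of the ligands of Cxcr3 passed as higher. The genes that rose include the antiviral genes Ifit3 (at least 146-fold, adjusted p = 0.0166) and Ifit1 (at least 16.4-fold, adjusted p = 0.02) and the proteasome subunit Psmb8 (at least 132-fold, adjusted p = 0.00119). At 8 days 2 rose, Irf1 (3.88, adjusted p = 0.0342) and Bst2 (1.27, adjusted p = 0.0378), where 2.76% of all tested genes rose. The list's mean level was -3.73 and -3.85 in E11.5 progenitors, -1.28 and -3.16 in 8-day culture and -1.05 and 1.75 in 19-day culture. Here replicate 2 of the 19-day culture was the higher, as for Cxcl10, Ccl8 and Ccl9.

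**Figure D5:**
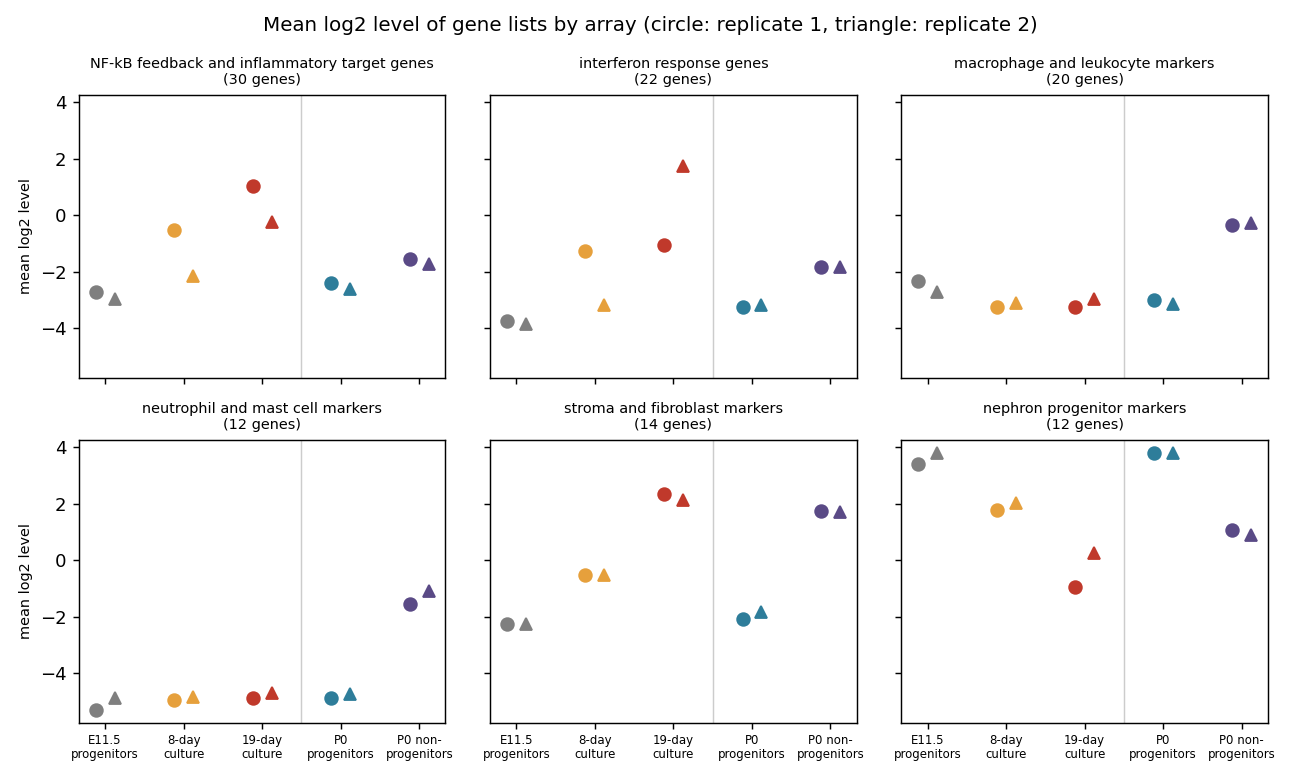
Mean log2 level minus the array's 75th percentile (y axes) of listed gene groups on each array (circle for replicate 1, triangle for replicate 2) of each group (x axes). The stromal markers are highest in 19-day culture (2.15 to 2.33) and the neutrophil and mast cell markers in P0 non-progenitors (-1.54 and -1.07).

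Markers of other cell types did not all move in the same direction in culture. The mean level of 20 macrophage and leukocyte markers was -2.33 and -2.73 in E11.5 progenitors, -3.26 and -3.1 in 8-day culture and -3.25 and -2.96 in 19-day culture. Of the 20, 13 to 15 were above background on an E11.5 array, 10 to 12 on an 8-day array and 13 on each 19-day array. These counts include probes at similar levels on all 10 arrays, such as Itgam (7.52 to 8.63), Ptprc (-1.62 to -0.77) and Adgre1 (-3.69 to -2.56). Whether such probes report leukocyte RNA was not tested. None of the 20 passed as higher in culture. At 19 days 3 fell, among them Tyrobp (-4.64, adjusted p = 0.00504), where 9.59% of all tested genes fell. Lyz2, Cd52, Laptm5, C1qc, Ctss and Spi1 were not above background on either 19-day array. Aif1 had levels of -3.68 and -4.13 in E11.5 progenitors and -3.79 and -1.07 in 19-day culture and did not pass (1.48, adjusted p = 0.304). Of 12 neutrophil and mast cell markers, 1 to 2 were above background on an E11.5 array, 3 to 4 on an 8-day array and 5 on each 19-day array. Among them Mcpt4 rose at 19 days by at least 3.28-fold (2.31, adjusted p = 0.0364). Elane, above background in both cultures (0.83 at 19 days, adjusted p = 0.188), and Mpo, above background at 19 days (0.4, adjusted p = 0.557), did not pass. The markers S100a8, S100a9, Ngp, Ltf, Retnlg, Cpa3 and Cma1 were not above background in either culture. The 14 stromal markers averaged -2.26 to -2.25 in E11.5 progenitors, -0.53 to -0.51 in 8-day culture and 2.15 to 2.33 in 19-day culture. The part of stromal or other cells in the cultures' chemokine levels was not tested.

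At birth 10 of the 20 macrophage and leukocyte markers were lower in P0 progenitors and none higher, with mean levels of -2.99 and -3.14 in P0 progenitors, against -0.33 and -0.27 in P0 non-progenitors. Of the 12 neutrophil and mast cell markers 7 were lower, of the 12 endothelial markers 10, of the 14 stromal markers 9 and of the 15 tubule markers 12. Over all tested genes, 4.15% were lower. Some markers, such as S100a8 and Tie1, were above background on both arrays of P0 non-progenitors alone and entered the test through that group. The lower markers accompany the lower Ccl9, Il1b, Cxcl13 and Cxcl14 of P0 progenitors, and the part of each cell type in these 4 genes was not tested.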

How the data were processed

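RNA of 10 samples was hybridised to 1-colour Agilent arrays. Per the file headers, the deposited files hold spot intensities from Feature Extraction 11.5.1.1, background-subtracted by that software, with flags for outliers and for signal well above background. Control spots and outlier-flagged spots were left out. The log2 intensity (gProcessedSignal) minus each array's 75th percentile (intensities of 220.4 to 340.6) was averaged over the spots of a probe, and a gene was read by its probe with the highest mean. The 55681 probes were named by accession (28026), symbol (3418) or older symbol (295) through RefSeq, and otherwise as in the files (23942). Replicate 2 of the P0 progenitors was deposited with rounded values and altered gene names, and its names were taken from another array. No spot was saturated.

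Groups follow the labels, with 5 comparisons in 1 limma 3.58.1 fit (R 4.3.3, trended eBayes) over all arrays, 2-sided, with Benjamini-Hochberg adjustment over 26252 genes. The fit was tested on simulated data. Every gene of the rule is accounted for and the tested ones are given with their levels. Of other lists, up to 4 genes that passed and up to 2 that did not are named. The members, roles and gene lists were chosen with earlier results of these data known. Alternatives changed the background correction, normalisation, filter, probe choice, trend, slide block, samples in the fit and arrays left out. One label gives birth as P0 where file names give another stage, and the labels were followed.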

Additional observations from a re-analysis of the deposited data

Results flagged for a closer look

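For 3 genes the change after 19 days of culture differed from the change after 8 days, both against E11.5 progenitors, by limma's test of the difference, which is the direct comparison of 19-day with 8-day culture. Ccl2 changed by 4.41 at 19 days and by 0.78 at 8 days, a difference of 3.64 (SE 0.85, adjusted p 0.0426). Cxcl12 changed by 0.21 at 19 days and by -1.81 at 8 days, a difference of 2.02 (SE 0.22, adjusted p 0.0038). Il33 changed by 6.11 at 19 days and by 4.24 at 8 days, a difference of 1.87 (SE 0.45, adjusted p 0.0494). Within slide 2 alone, 19-day culture against 8-day replicate 2, the differences were 3.89 for Ccl2 (adjusted p 0.305), 1.79 for Cxcl12 (adjusted p 0.204) and 1.73 for Il33 (adjusted p 0.286).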

How the results depend on the processing

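Across 25 gene results and their alternatives, 387 of 555 values kept their direction and passed limma's test, 167 kept their direction and did not pass, and 1 reversed (Cxcl11 in 19-day culture against E11.5 progenitors, 0.04 with quantile normalisation). The cause was not tested. Of the 41 genes, the number that passed limma's test at 8 days against E11.5 progenitors was 5 on slide 1 alone, 0 with the compared groups alone and 1 for changes of at least 1 log2 unit, against 3 as reported (6 had an unadjusted p below 0.05). At 19 days against E11.5 progenitors, against 10, it was 5 with only genes above background on all arrays, 5 with slide as a block, 3 with the compared groups alone and 2 for changes of at least 1 log2 unit. Between 19-day and 8-day culture, against 3, it was 5 with normexp background correction, 1 with no filter, 1 with no intensity trend, 5 with slide as a block, and 0 on slide 2 alone, with the compared groups alone or for changes of at least 1 log2 unit. For P0 against E11.5 progenitors, against 2, it was 1 with no intensity trend and 0 for changes of at least 1 log2 unit. For P0 progenitors against P0 non-progenitors, against 7, it was 3 with only genes above background on all arrays and 1 for changes of at least 1 log2 unit. The filter on all arrays leaves out genes at background in any group.

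With 1 array left out, the counts ranged from 2 to 3 at 8 days, 4 to 10 at 19 days, 1 to 6 between the cultures, 0 to 3 for P0 against E11.5 progenitors and 0 to 8 for P0 progenitors against P0 non-progenitors. The replicate block gave 3, 11, 2, 2 and 8 in the same order. It lost Cxcl14 between the P0 groups and Ccl2 and Il33 between the cultures. By limma's test it gained Cxcl1 at 19 days (adjusted p 0.0385) and Ccl7 between the cultures (adjusted p 0.0366). Between the P0 groups it gained Ccl12 (adjusted p 0.0495) and Cxcl2 (adjusted p 0.0173). Over 26246 genes, the differences between replicates 1 and 2 were uncorrelated between compared groups (-0.01 to 0.02). That cannot settle whether same-numbered arrays share an origin, which the labels do not give. Quantile normalisation moved the share of higher calls over all genes to 45.3%, against 33.1%, between the cultures, to 65.4%, against 51.4%, for P0 against E11.5 progenitors and to 34.9%, against 50.5%, between the P0 groups. Normexp shifted the median of all genes by -0.17 at 19 days against E11.5 progenitors. Over all genes, the counts at 8 days (1261 as reported) were 540 with no intensity trend, 631 with slide as a block, 683 on slide 1 alone, 0 with the compared groups alone and 144 for changes of at least 1 log2 unit. At 19 days (4416) they were 1485 with slide as a block, 1297 with the compared groups alone and 911 for changes of at least 1 log2 unit. Between the cultures (2119) they were 760 with no trend, 0 on slide 2 alone or with the compared groups alone and 157 for changes of at least 1. For P0 against E11.5 progenitors (1036) they were 447 with no trend, 434 with the compared groups alone and 99 for changes of at least 1. Between the P0 groups (2201) they were 1435 with only genes above background on all arrays, 1265 with no trend and 459 for changes of at least 1. Genes near background, such as Cxcl2, Csf2 and Ccl12, have levels close to the lowest that the arrays called.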
